A study of Mus musculus with 8 samples.

Results

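Matrix metalloproteinases (MMPs) and the tissue inhibitors that bind them (TIMPs) were followed in mouse embryonic fibroblasts (MEFs) in which H3f3b, a gene for histone variant H3.3, was deleted in culture. The 10 genes were Mmp2, Mmp3, Mmp9, Mmp11, Mmp13, Mmp14, Mmp23, Timp1, Timp2 and Timp3, matched by symbol, and they had 16 probes among the 25697 on the array. Of these probes, 14 passed the filter on dim probes, which asked 3 or more of the 8 arrays to have a detection p below 0.05, and each of the 10 genes kept at least 1 probe among the 8488 genes tested. All cultures were C57BL6J MEFs of E12.5 with both H3f3b alleles floxed (H3f3b Fl/Fl), so the controls carried the floxed alleles too. The control arm received a retroviral GFP vector (IRES-GFP) and the knockout arm a retrovirus for Cre and GFP (CRE-IRES-GFP). Lines cKO1 and pcKO1 had 1 array in each arm and line cKO2 had 2 in each arm, which the study's methods describe as analytical duplicates. The 8 arrays thus held 3 lines, and cKO2 entered each test as the mean of its duplicates. Nothing in the labels says whether the lines came from separate embryos, so p-values of Cre against GFP measure the spread of the change between these cultures. Line comparisons use that same spread, with both arms of a line as its arrays. No line had a repeat culture, so their p-values and SEs do not measure variation between cultures of a line. A second deposited table, which names columns by cell rather than by line, gives 1 cell name to 2 of its 4 array pairs, once marked as pooled. Some of the 3 lines may therefore share a source, and n = 3 lines may not be 3 independent sources.

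MMPs are zinc-dependent proteases that cut collagens, proteoglycans and other parts of the extracellular matrix as well as growth factors and receptors. Most are secreted as inactive proenzymes that other proteases, including other MMPs, convert to the active form, and TIMPs block the active site. Fibroblasts are a main source of both in connective tissue, and several MMP genes respond to growth factors and inflammatory cytokines through AP-1, a dimer of Fos and Jun family proteins that binds the promoter.

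The promoters of Mmp3 and Mmp13 are printed because these genes had the largest changes among the 10. Both genes lie on chromosome 9, with 162.5 kb between the end of Mmp13 and the start of Mmp3. The sequences are from RefSeq (GRCm38.p6), run from 250 bases before to 50 bases after the annotated start, and carry in capitals every match to the AP-1 motif TGANTCA and to the TATA motif TATAAA on either strand.
Mmp3, chr9:7445572-7445871, plus strand: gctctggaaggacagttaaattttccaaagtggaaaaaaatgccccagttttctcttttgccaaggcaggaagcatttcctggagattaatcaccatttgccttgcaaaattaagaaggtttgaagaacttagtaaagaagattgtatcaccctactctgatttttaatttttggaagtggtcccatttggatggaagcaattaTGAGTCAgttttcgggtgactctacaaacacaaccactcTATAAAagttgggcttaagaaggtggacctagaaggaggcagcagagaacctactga
Mmp13, chr9:7272264-7272563, plus strand: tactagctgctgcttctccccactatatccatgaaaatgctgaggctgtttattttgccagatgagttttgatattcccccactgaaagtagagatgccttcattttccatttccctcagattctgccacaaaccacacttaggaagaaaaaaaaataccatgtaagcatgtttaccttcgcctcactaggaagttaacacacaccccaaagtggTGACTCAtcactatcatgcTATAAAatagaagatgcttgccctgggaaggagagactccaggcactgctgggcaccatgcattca
In Mmp3 the AP-1 match lay at positions -46 to -40 from the start and the TATA match at -7 to -2. In Mmp13 they lay at -35 to -29 and at -16 to -11, and the motifs did not overlap in either promoter. Promoters were matched for 8 of the 10 genes, all but Mmp2 and Mmp9, and only 2 of these 8, Mmp3 and Mmp13, held either motif in this window. Of all 32851 promoters of this length, 7.81% held the AP-1 motif, 13.6% the TATA motif and 1.54% both. A match is a description of the letters and does not show that a factor was bound.

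H3f3b itself was read first as a check of the labels. Its signal was 4420.1 with GFP and 169 with Cre for cKO1, 5548.6 and 214.6 for the first pair of cKO2, 6223.3 and 219.9 for its second pair, and 4081.8 and 920.2 for pcKO1. Every Cre array was below every GFP array, and the log2 change was -5.32 for cKO1, -5.11 for cKO2 and -2.17 for pcKO1, smallest in size in pcKO1, and the mean over lines was -4.20 ± 0.51 (SE, n = 3; adjusted p = 0.188). Under median scaling of the arrays its adjusted p was 0.0373. Where this probe lies relative to the floxed exons was not examined. Signal is the deposited bead intensity on a linear scale, and a dim limit was set on each array at the 95th percentile of the 11878 probes detected on no array, which ran from 133.1 to 161.8. Of 13 measured fibroblast markers 12 passed the filter, with a summed signal of 29660.2 to 51969.8. The sum was highest in pcKO1, where Thy1 read 10168.1 with GFP and 10731.6 with Cre against 149 to 530 on the 6 other arrays. Dcn, the gene for decorin, was under the dim limit on both cKO1 arrays (117.5 with GFP and 124.5 with Cre). Prrx1 was highest in cKO1, at 524.3 with GFP and 420 with Cre, and read 165.7 to 179.6 on the cKO2 arrays. The sum was lowest on the cKO1 Cre array, where Vim, which encodes the intermediate filament vimentin of many cell types, made up 20103.3 of the 29660.2 and Col1a1, a chain of fibrillar collagen, read 2874.7 against 6707.1 with GFP. The summed signal of 13 macrophage markers was 1632.5 to 1994.5 on the cKO1 and cKO2 arrays but 17693.6 with GFP and 13878.2 with Cre in pcKO1. Lyz2, a lysozyme of macrophages, read 5227.6 and 3219.8 in pcKO1 and 113 to 139.4 on the 6 other arrays, whereas Ptprc and Itgam were detected on none. The 8 skeletal muscle markers summed to 3254 and 2780.5 in pcKO1 against 963.8 to 1177.2 elsewhere. Acta1 made up 2227.9 and 1687.7 of the pcKO1 sums and read 122 to 155.5 on the other arrays. In a culture with more than 1 cell type, fewer cells of a type and less RNA per cell cannot be told apart.

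**Figure D1:**
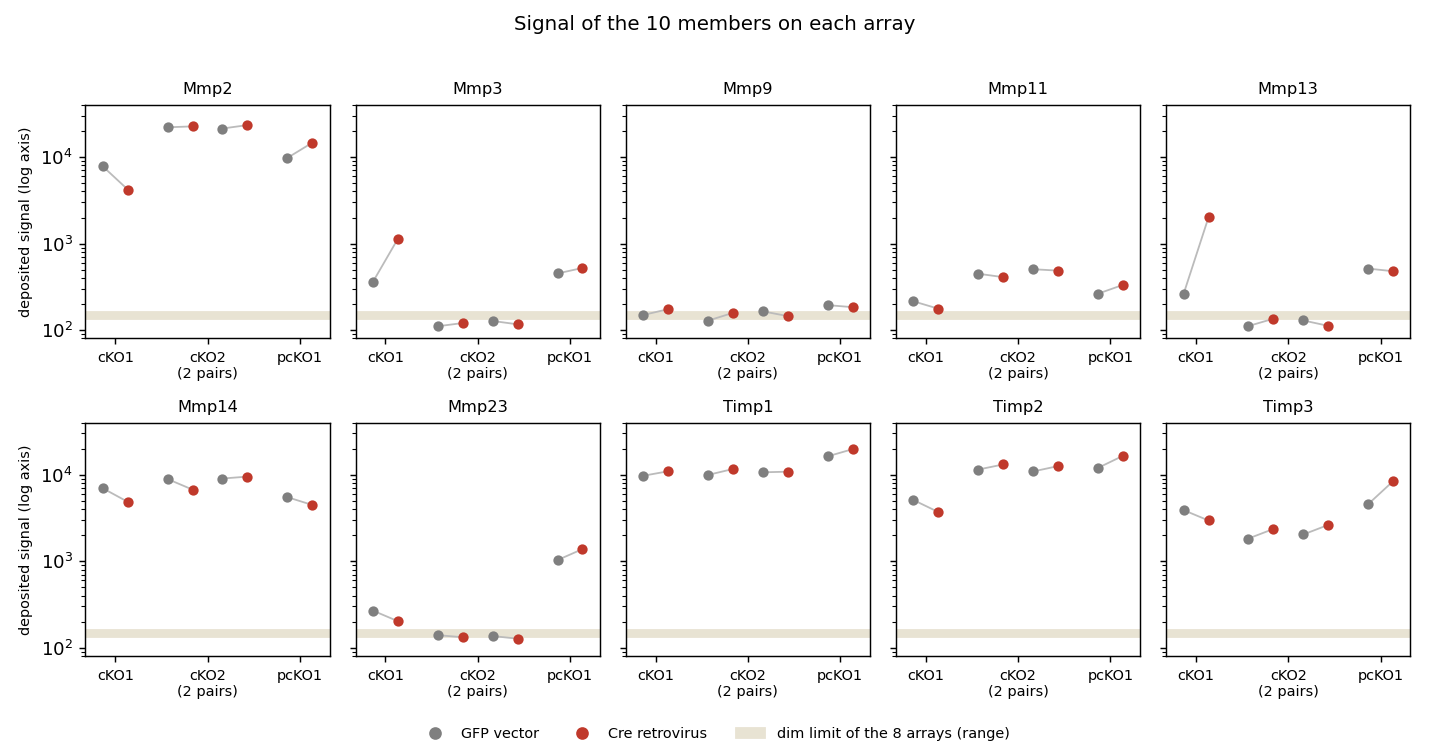
Deposited signal (log axis) of the probe that stands for each of the 10 genes, with GFP arrays in gray, Cre arrays in red, a line joining each pair, and a band for the range of the dim limit (133.1 to 161.8). Mmp3 and Mmp13 were within or under the band on all cKO2 arrays, and reached 1138.1 and 2011.1 on the cKO1 Cre array.

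Mmp3 and Mmp13 were those of the 10 genes whose levels differed most between the arms, and they did so in 1 line. Mmp3 encodes stromelysin-1, which cuts proteoglycans and activates other MMP proenzymes, and Mmp13 encodes collagenase-3, the main interstitial collagenase of rodents. Mmp13 signal was 261.5 with GFP and 2011.1 with Cre for cKO1, 111.4 and 135.3 for the first pair of cKO2, 129.3 and 112 for its second pair, and 514.1 and 479.1 for pcKO1. The cKO1 Cre array stood above all others, and all 4 cKO2 arrays were under their dim limits. On the normalized log2 scale the Mmp13 change was 3.20 for cKO1 (9.17-fold higher), 0.09 for cKO2 and -0.10 for pcKO1, with a mean of 1.06 ± 0.54 (SE, n = 3 lines) and an adjusted p of 0.967. The cKO1 change ranked 3 from the top of 8488 genes in that line.

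Mmp3 signal was 362 with GFP and 1138.1 with Cre for cKO1, 110.8 and 120.7 for the first pair of cKO2, 127.5 and 116.6 for its second pair, and 451.5 and 522.6 for pcKO1. The order of the arrays was thus like that of Mmp13, with cKO1 with Cre highest and all 4 cKO2 arrays under the dim limit. The log2 change in cKO1 ranked 6 from the top of 8488, at 3.51-fold, and the mean over lines was 0.69 ± 0.31 (SE, n = 3), with an adjusted p of 0.967. The 2 other Mmp3 probes were also higher with Cre in cKO1, at 705.1 against 273.4 and 985.3 against 258.3. The 2 other Mmp13 probes failed the filter: 1 read 116.9 and 223.6 in cKO1, and the other 128.9 and 159.1, both of the latter under their dim limits, so the size of the Mmp13 change rests on 1 probe. In cKO1, 2 of the 10 genes (Mmp3 and Mmp13) were 2-fold or more apart between the arms, against 2.23% of all genes tested. None of the 10 reached that size in cKO2 (0.0589% of all genes) or in pcKO1 (0.236%).

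Mmp10, the gene for stromelysin-2, lies in the same MMP gene cluster and was looked at after its values were seen. Its signal was 138.1 with GFP and 277 with Cre for cKO1, 119 and 128 for the first pair of cKO2, 128.2 and 125.4 for its second pair, and 163.3 and 165.1 for pcKO1. The cKO1 Cre array was the highest of the 3 arrays above their dim limits, while the cKO1 GFP array was just under its own limit of 138.5. Against that limit, after background correction and quantile normalization, Mmp10 was at least 2.52-fold higher with Cre in cKO1. Its adjusted p over the 3 lines was 0.967. Other settings gave smaller folds than this bound. The measured log2 change in cKO1 was 1.14 to 1.26 with median scaling, cyclic loess or no normalization between arrays. Without background correction it was 0.999951. With a normexp offset of 16 it was larger, at 1.77.

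**Figure D2:**
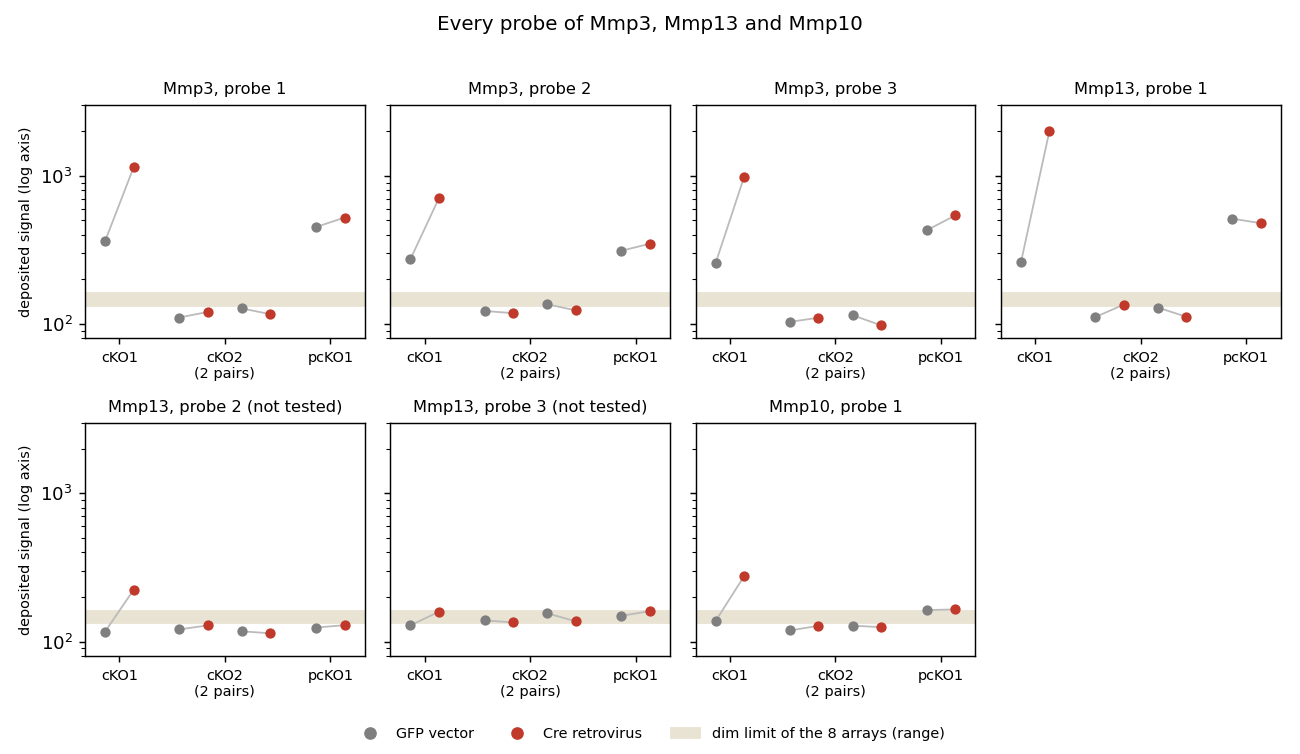
Deposited signal (log axis) of every probe of Mmp3, Mmp13 and Mmp10, with GFP arrays in gray, Cre arrays in red and the range of the dim limit as a band; probe 1 stands for the gene. The 3 Mmp3 probes, Mmp13 probes 1 and 2 and the Mmp10 probe were higher with Cre in cKO1, while Mmp13 probe 3 stayed within or near the band on all arrays.

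Between lines, Mmp3 and Mmp13 were high in cKO1 and pcKO1 and not above the dim limit in cKO2. For such genes a lower bound on the fold was taken against the dim limit in place of the dim line's own signal. The bound applies to values after background correction and quantile normalization. An adjusted p beside a bound is that of the measured difference. Both genes had a detection p below 0.05 on 4 of 8 arrays and were over the dim limit only in cKO1 and pcKO1. They thus probably passed the filter through the lines where they were high, and their p-values against cKO2 are not separate support. Mmp3 was at least 6.65-fold higher in cKO1 than in cKO2 (adjusted p = 0.00059) and at least 4.62-fold higher in pcKO1 than in cKO2 (adjusted p = 0.00326). Mmp13 was at least 7.23-fold higher in cKO1 (adjusted p = 0.0071) and at least 4.72-fold higher in pcKO1 (adjusted p = 0.0313), though without background correction the last comparison gave an adjusted p of 0.0548. Under that setting the measured log2 differences of cKO1 minus cKO2 were 2.46 for Mmp3 and 2.58 for Mmp13. Those of cKO2 minus pcKO1 were -1.96 and -1.95, and each of these is a smaller fold than its bound above. The bounds of cKO1 rest in large part on its Cre array. With GFP arrays alone they were 2.38-fold for Mmp13 and 3.54-fold for Mmp3. For pcKO1 they were 4.88-fold and 4.24-fold with GFP, and 4.57-fold and 5.03-fold with Cre, in the same order. The difference between cKO1 and pcKO1 did not pass for either gene (log2 difference 0.53 ± 0.38 for Mmp3 and 0.62 ± 0.66 for Mmp13, SE). These differences are means over both arms of a line, so a call compares cultures, and for pcKO1 the macrophage marker sum of 13878.2 to 17693.6 stands beside them; its part was not tested.

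The gelatinases cut denatured collagen and basement membrane collagen, and Mmp2 (gelatinase A) followed a different order of lines. Mmp2 signal was 7798.1 with GFP and 4215 with Cre for cKO1, 22067.2 and 22617.9 for the first pair of cKO2, 21372.5 and 23403.1 for its second pair, and 9769.7 and 14641 for pcKO1. All cKO2 arrays were above those of the other lines, and Cre and GFP arrays of cKO2 lay close together. The change was 1.83-fold lower for cKO1, 1.03-fold higher for cKO2 and 1.55-fold higher for pcKO1, with a mean log2 change of -0.07 ± 0.23 (SE, n = 3; adjusted p = 0.99). Without cKO1 the mean turned to 0.33 (adjusted p = 0.0677). Mmp2 was lower in cKO1 than in cKO2 by a log2 difference of -1.97 ± 0.28 (adjusted p = 0.00125) and than in pcKO1 by -1.11 ± 0.28 (adjusted p = 0.0217). The difference between cKO2 and pcKO1, 0.86 ± 0.28, did not pass (adjusted p = 0.0648), though it did after cyclic loess (adjusted p = 0.0451). Mmp9 (gelatinase B), known from macrophages and other leukocytes as well as fibroblasts, read 128.6 to 194.4 over the 8 arrays, near the dim limit. Its highest values were 194.4 and 184.1, both in pcKO1, and neither arm nor line gave a call (mean log2 change 0.007 ± 0.13; smallest adjusted p between lines 0.147).

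Mmp14 encodes a membrane-anchored MMP (MT1-MMP) that cuts fibrillar collagen and, in a complex with Timp2, activates the Mmp2 proenzyme. Its signal was 6953.4 with GFP and 4849.8 with Cre for cKO1, 8889.8 and 6708.2 for the first pair of cKO2, 9017.8 and 9489.8 for its second pair, and 5491 and 4464.6 for pcKO1. It was lower with Cre in cKO1, in pcKO1 and in 1 of the 2 cKO2 pairs, and the arms overlapped. The mean log2 change was -0.31 ± 0.11 (SE, n = 3 lines), with -0.49 for cKO1, -0.18 for cKO2 and -0.26 for pcKO1, at an unadjusted p of 0.0198 and an adjusted p of 0.967. Mmp14 was highest in cKO2, by a log2 difference of 0.79 ± 0.13 from pcKO1 (adjusted p = 0.00521) and with a difference of cKO1 minus cKO2 of -0.54 ± 0.13 (adjusted p = 0.0133), while cKO1 and pcKO1 differed by 0.25 ± 0.13 (adjusted p = 0.193).

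Mmp11, or stromelysin-3, is activated inside the cell by furin and is known from stromal fibroblasts. Its signal was 215.2 with GFP and 176.8 with Cre for cKO1, 448.2 and 409.4 for the first pair of cKO2, 505.6 and 486.8 for its second pair, and 263.3 and 332.7 for pcKO1. As with Mmp2, cKO2 was highest, the Cre array was lower in cKO1 and higher in pcKO1 (log2 changes -0.58 and 0.38). The mean change was -0.10 ± 0.19 (SE, n = 3; adjusted p = 0.979). Mmp11 was lower in cKO1 than in cKO2 (-1.50 ± 0.23, adjusted p = 0.00171) and than in pcKO1 (-0.76 ± 0.23, adjusted p = 0.0415), and the difference of cKO2 from pcKO1 was close to the threshold (0.75 ± 0.23, adjusted p = 0.0546).

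Mmp23, a membrane-anchored MMP, was highest in pcKO1. Its signal was 268.1 with GFP and 202.3 with Cre for cKO1, 139.6 and 132.1 for the first pair of cKO2, 136.3 and 127.1 for its second pair, and 1029.9 and 1378.5 for pcKO1. The lines did not overlap, and 1 of 4 cKO2 arrays exceeded its dim limit. Mmp23 had a detection p below 0.05 on 4 of 8 arrays. It thus probably passed the filter through cKO1 and pcKO1, and its p-values against cKO2 are not separate support. The log2 difference of cKO1 minus pcKO1 was -2.63 ± 0.25 (adjusted p = 0.000259). With the dim limit in place of any cKO2 signal under it, Mmp23 was at least 12.2-fold higher in pcKO1 than in cKO2 (adjusted p = 7.15e-05) and at least 1.97-fold higher in cKO1 than in cKO2 (adjusted p = 0.0102). Without background correction the measured log2 differences were -3.12 for cKO2 minus pcKO1 and 0.78 for cKO1 minus cKO2, smaller folds than these bounds. Between the arms the log2 change was -0.61 for cKO1, -0.10 for cKO2 and 0.46 for pcKO1, a mean of -0.08 ± 0.20 (SE, n = 3; adjusted p = 0.983). The high pcKO1 signal stood beside a macrophage marker sum of 17693.6 with GFP and 13878.2 with Cre, lower with Cre while Mmp23 was higher; its part was not tested.

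The 3 TIMPs were well above the dim limit on every array, and by the probe that stands for each gene all 3 were higher in pcKO1 than in cKO1, though for Timp3 its other probe did not give this. Timp1, a soluble inhibitor that acts weakly on membrane-anchored MMPs, read 9700 with GFP and 10935.2 with Cre for cKO1, 9925.7 and 11616.2 for the first pair of cKO2, 10639.8 and 10819.2 for its second pair, and 16273.8 and 19706.3 for pcKO1. On the deposited scale this probe was higher with Cre in every pair, but the arms overlapped because of the level in pcKO1. The mean log2 change was 0.24 ± 0.09 (SE, n = 3; unadjusted p = 0.0338, adjusted p = 0.967), and the second cKO2 pair gave -0.04 after normalization. The other Timp1 probe gave 0.10 for cKO1, 0.14 for cKO2 and 0.008 for pcKO1, against 0.26, 0.10 and 0.34 for the probe that stands for the gene. In the first cKO2 pair the other probe read 9889.6 with GFP and 9752 with Cre. Between lines, Timp1 was lower in cKO1 (-0.79 ± 0.11, adjusted p = 0.00208) and in cKO2 (-0.76 ± 0.11, adjusted p = 0.00345) than in pcKO1, whereas cKO1 and cKO2 differed by -0.03 ± 0.11 (adjusted p = 0.873).

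Timp2, which both inhibits MMPs and takes part in activation of the Mmp2 proenzyme, read 5092.7 with GFP and 3695.9 with Cre for cKO1, 11446.8 and 13111.1 for the first pair of cKO2, 10879.9 and 12552.7 for its second pair, and 11954.9 and 16475.7 for pcKO1. Both cKO1 arrays were below all others. The log2 change was -0.42 for cKO1, 0.20 for cKO2 and 0.51 for pcKO1 (mean 0.10 ± 0.16, SE, n = 3; adjusted p = 0.974), and without pcKO1 the mean turned to -0.11. Timp2 was lower in cKO1 than in cKO2 (-1.50 ± 0.20, adjusted p = 0.000876) and than in pcKO1 (-1.70 ± 0.20, adjusted p = 0.000764). The difference between cKO2 and pcKO1 did not pass (-0.20 ± 0.20, adjusted p = 0.517).

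Timp3 is bound to the matrix and also inhibits ADAM and ADAMTS proteases. It read 3891.4 with GFP and 2952 with Cre for cKO1, 1826.2 and 2354 for the first pair of cKO2, 2033.3 and 2624.1 for its second pair, and 4549.6 and 8386.5 for pcKO1. It was lower with Cre in cKO1 and higher in the 3 other pairs, and the 1.95-fold difference in pcKO1 ranked 14 from the top of 8488 genes in that line. The mean log2 change was 0.33 ± 0.22 (SE, n = 3; adjusted p = 0.967). The other Timp3 probe, at 179 to 381.3, went the other way in cKO1, at 0.35 against -0.36 for the probe that stands for the gene, and the same way in cKO2 and pcKO1 (0.07 and 0.65). Timp3 was lower in cKO1 than in pcKO1 (-0.91 ± 0.27, adjusted p = 0.0346) and lower in cKO2 than in pcKO1 (-1.53 ± 0.27, adjusted p = 0.00609), while cKO1 minus cKO2 was 0.62 ± 0.27 (adjusted p = 0.0989). The other probe was above its dim limits on every array and read lower in pcKO1 than in cKO1, at 241 against 314.9 with GFP and 355.2 against 381.3 with Cre. With each probe fitted on its own it gave 0.42 ± 0.19 for cKO1 minus pcKO1 (adjusted p = 0.125) and -0.74 ± 0.19 for cKO2 minus pcKO1 (adjusted p = 0.025), so the call between cKO1 and pcKO1 rests on the brighter probe. The TIMP levels in pcKO1 stood beside its macrophage marker sum (17693.6 and 13878.2) and its muscle marker sum (3254 and 2780.5), whose part was not tested.

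**Figure D3:**
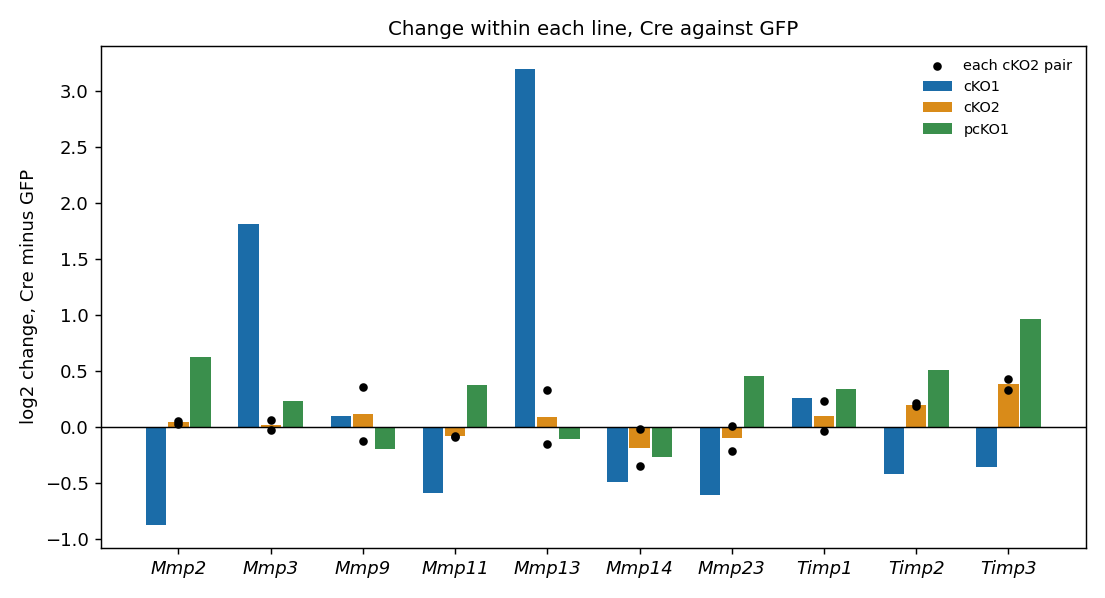
Log2 change, Cre minus GFP, of each gene in cKO1, cKO2 (mean of its duplicate pairs, each pair as a black point) and pcKO1. Mmp3 and Mmp13 stood at 1.81 and 3.20 in cKO1, while Mmp2, Mmp11, Mmp23, Timp2 and Timp3 were below 0 in cKO1 and above 0 in pcKO1.

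Over all 10 genes, none passed an adjusted p of 0.05 for Cre against GFP in the limma fit, and 0 of 8488 genes tested did (0%). At an unadjusted p under 0.05 there were 2 of the 10, Mmp14 and Timp1, against 3.68% of all genes. The same sign in all 3 lines was seen for Mmp3 and Timp1, both higher, and Mmp14, lower, which is 3 of 10 against 25.7% of all genes. The sign of Mmp3 in cKO2 rested on a change of 0.02 at a signal under the dim limit. The median log2 change of the 10 was -0.39 for cKO1, 0.07 for cKO2 and 0.36 for pcKO1, beside -0.03, 0.006 and -0.006 over all genes. Calls came with a line left out, where 1 residual degree of freedom was left and limma gave every gene the spread of its intensity trend (an infinite prior). Without cKO1, Timp3 passed (log2 change 0.67, adjusted p = 7.3e-06) among 61 genes lower and 37 higher. Without cKO2, Mmp13 passed (1.55, adjusted p = 8.82e-05), among 1 lower and 6 higher. Without pcKO1, Mmp3 (0.92, adjusted p = 0.00274) and Mmp13 (1.65, adjusted p = 3.63e-12) passed among 41 lower and 27 higher, with changes of 0.02 and 0.09 in cKO2.

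Differences between lines were more frequent than differences between arms. Of the 10 genes, 7 passed between cKO1 and cKO2, where 37.7% of all genes tested did. Between cKO1 and pcKO1 6 passed, against 29.1% of all genes, and between cKO2 and pcKO1 6 passed, against 19.8%. Mmp9 alone of the 10 passed in none of the 3 comparisons. The counts include Mmp3, Mmp13 and Mmp23, which had a detection p below 0.05 on 4 of 8 arrays. They were over the dim limit on all cKO1 and pcKO1 arrays but near or under it in cKO2, so they probably passed the filter through the lines where they were high. With detection asked on 8 of 8 arrays, Mmp3, Mmp9, Mmp13 and Mmp23 left the test, and Mmp2, Mmp11, Mmp14 and the 3 TIMPs stayed. Among those that stayed the counts were 4, 5 and 4 in the same order, beside 2584, 1993 and 1384 of all genes then tested. Fewer genes were then tested, and their number is not given, so the lower counts do not show a lower rate. Without cKO1, the count between cKO2 and pcKO1 was 9 of the 10 genes and 3713 genes overall in place of 1678, by the fit with 1 residual degree of freedom described above.

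**Figure D4:**
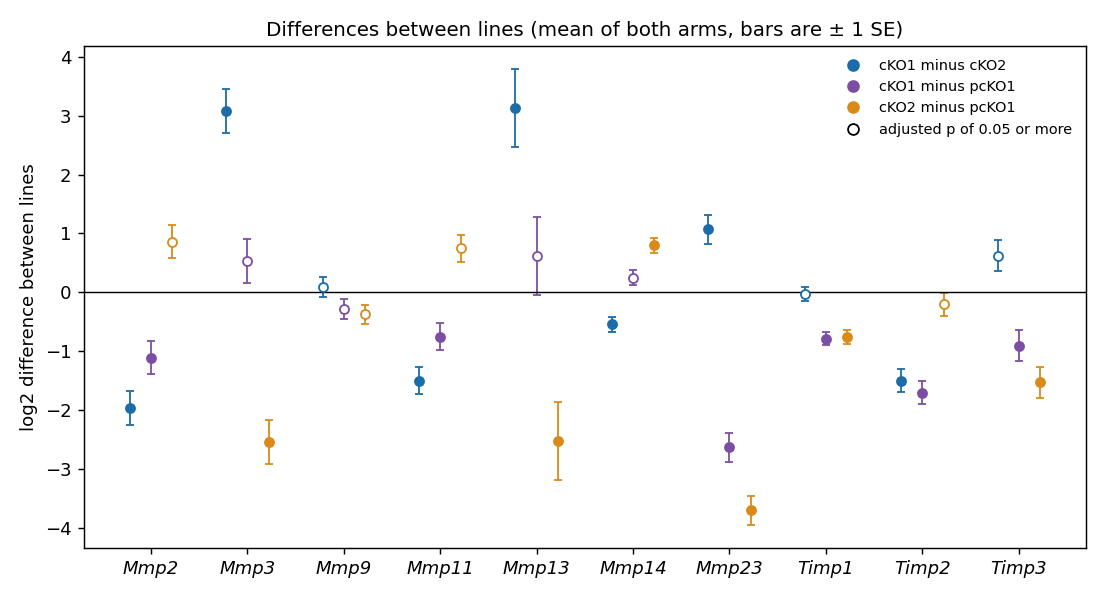
Log2 difference between lines (mean of both arms) for each gene in the 3 line comparisons, with bars of ± 1 SE; open points had an adjusted p of 0.05 or more. Mmp23 stood at -2.63 for cKO1 minus pcKO1, and the plotted differences of Mmp3, Mmp13 and Mmp23 from cKO2 are against signals near or under the dim limit.

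Which of the 10 genes had like patterns was described by Pearson's r over 8 arrays that come from 3 lines and are not independent. Mmp2 and Mmp11 were most alike (r = 0.988), followed by Mmp3 and Mmp13 (0.976), while Mmp3 ran opposite to Mmp11 (-0.924) and to Mmp2 (-0.910). Mmp23 ran with Timp3 (0.922) and Timp1 (0.873). For the 2 members of largest SD over the arrays, Mmp13 and Mmp23, the 5 most similar genes were taken among 1537 tested genes with an SD of at least 0.5. Those of Mmp13 were Epha2, an ephrin receptor kinase (0.984), Arhgap22 (0.982), Mpp6 (0.981), Csrnp1 (0.978) and Mmp3. Each of the first 4 was higher with Cre in cKO1 (log2 changes 0.75 to 1.38) and lowest in cKO2, as Mmp13 was. Those of Mmp23 were Galnt18 (0.996), Jmjd8 (0.992), Slc27a3 (0.992), C1qtnf12 (0.991) and Thbs2, the gene for thrombospondin-2 of the matrix (0.986), all highest in pcKO1. Because these genes were chosen by r over the same arrays, such shared patterns follow largely from the choice and are not separate results.

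Other genes of matrix turnover were read from lists, and no gene of any list passed an adjusted p of 0.05 in either direction in the limma fit. At an unadjusted p under 0.05 there were 2, Furin and Ddr2, over lists of 5 to 20 tested genes each, beside 3.68% of all genes tested. Of the other MMP and TIMP genes 5 of 17 listed were tested, and their median log2 change was 0.02, beside -0.008 over all genes. ADAM proteases (7 tested, median 0.15), ADAMTS proteases (6, median -0.02), plasminogen activation (5, median 0.04), MMP activators and partners (14, median 0.04) and other matrix proteases (10, median 0.0008) gave the other medians. Furin, which cleaves the proenzymes of Mmp11 and Mmp14, had log2 changes of -0.45 for cKO1, -0.24 for cKO2 and -0.25 for pcKO1 (mean -0.31 ± 0.13, unadjusted p = 0.0357, adjusted p = 0.967). Adam17, a sheddase that Timp3 inhibits, had 0.49, 0.17 and 0.24 (mean 0.30 ± 0.14, adjusted p = 0.967). Ddr2, a collagen receptor, had a detection p below 0.05 on 3 GFP arrays and on 0 of the 4 Cre arrays, too dim for its change to be given a size. It passed the filter only through its GFP arrays, so its limma p-values (unadjusted 0.0412, adjusted 0.967) are no support for a change. Lrp1, an endocytic receptor that clears MMPs, had 0.03, 0.02 and 0.66 (mean 0.24 ± 0.17, adjusted p = 0.967), with the opposite sign in cKO1 under median scaling. Among the remaining genes named by rule, S100a10, Fosb, Junb, Twist1 and Ctsl had positive and Bmp1 negative mean changes, of -0.10 to 0.24.

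The list of factors that act on MMP promoters had 20 tested genes. Among them was Nfkbia, which encodes an inhibitor of NF-kB and does not itself act on promoters (0.81 in cKO1). Their median log2 change was 0.29 for cKO1, 0.07 for cKO2 and -0.02 for pcKO1. In cKO1 16 of the 20 were higher with Cre, where 4032 of 8488 genes were. The gene of this list that reached 2-fold in cKO1 was Fosl1, an AP-1 subunit, noticed after its values were seen, with a log2 change of 1.01 there and an adjusted p of 0.967 over the lines. Fos, another AP-1 subunit, had a log2 change of -0.90 in cKO1. Junb and Fosb were higher in all 3 lines (mean log2 changes 0.17 ± 0.13 and 0.15 ± 0.12, both with an adjusted p of 0.967), though Junb in pcKO1 took the opposite sign under median scaling.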

How the data were processed

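Total RNA of the 8 MEF samples, the cKO2 duplicates among them, was run on Illumina MouseRef-8 BeadChips, which are 1-color arrays. The authors deposited intensity values named by sample on a linear scale, made in GenomeStudio (build and further settings not given in the sources used here), and each array had a mean of 508.3. They also deposited a second table of intensity values with detection p-values, whose columns carry the arm and cell names absent from the labels, so its p-values served only the filter on dim probes (p under 0.05 on at least 3 of 8 arrays) and 1 alternative. The values named by sample were corrected for background with normexp (offset 50), then quantile normalized and taken to log2, so a fold of a dim gene is understated. The brightest probe stood for a gene. The platform annotation gave 1 symbol to 23978 of 25697 probes and none to 1719.

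The cKO2 duplicates were averaged by arm. The comparison of arms used limma 3.58.1 (R 4.3.3), lines entering as blocks and eBayes following the intensity trend, two-sided, with Benjamini-Hochberg adjustment over 8488 genes at 0.05. The fit had 2 residual degrees of freedom and a prior of 6.31. Line differences came from the same fit, whose residual is the spread of the Cre change between lines. Their SEs therefore hold no repeat culture of a line. The labels give each Cre array a GFP array of its line, and deviations from the arm means correlated within a line at 0.818, 0.919 and 0.749. Between arrays the deposited values correlated at 0.994 for duplicates and at 0.877 to 0.944 between lines. The number of arrays limits the precision. The scripts were tested on simulated data. The 10 genes and all lists were chosen with earlier results of these data known. From each list, genes past the threshold, or otherwise at most 3 whose sign was shared by all lines and whose unadjusted p was lowest, were named. Alternatives changed the background correction, normalization, filter, probe choice, block, trend, threshold and the lines used.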

Additional observations from a re-analysis of the deposited data

Results flagged for a closer look

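In an arm of 4 arrays, an array was marked when its gap to the nearest other, as a share of the arm's range, was above Dixon's critical value for 4 samples. For 4 independent samples chance gives such a mark in about 1 of 20 groups. That rate does not apply here, since the cKO2 duplicates count as separate arrays and each arm holds 3 lines. A mark can thus restate a difference between lines. Timp2 in the GFP arm was marked for cKO1, with a gap of 0.951 of the range (log2 12.26 against 13.44 for the nearest array). Timp1 in the Cre arm was marked for pcKO1, with 0.882 of the range (14.31 against 13.49), and Timp3 in the Cre arm for pcKO1, with 0.836 (13.07 against 11.50).

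Some genes had log2 changes of opposite sign in different lines, each larger than 0.176, the median gap between the changes of the cKO2 duplicate pairs; these differences between lines were not tested. The change in cKO1 minus that in pcKO1 was -1.50 for Mmp2, -0.96 for Mmp11, -1.07 for Mmp23, -0.93 for Timp2 and -1.32 for Timp3. The change in cKO1 minus that in cKO2 was -0.62 for Timp2 and -0.74 for Timp3.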

How the results depend on the processing

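Of the 10 genes, none passed for Cre against GFP under any alternative that kept all 3 lines. With a line or a cKO2 pair left out the number of these genes that passed was 0 to 2, with 0 to 61 genes lower and 0 to 37 higher among all tested. The counts of 0 came from leaving out a cKO2 pair, and leaving out a line gave 1 or 2 of the 10 genes, 1 to 61 lower and 6 to 37 higher. The H3f3b log2 change was then -5.22 to -3.61, past the threshold whenever a line was left out. H3f3b passed, as 1 gene lower, under median scaling (-4.25) and without a filter on dim probes (-4.20). With the cKO2 duplicates as separate pairs 4 genes passed lower and 1 higher, H3f3b among them (-4.43). Without the line as a replicate block no gene passed and H3f3b stayed at -4.20; by neqc on the second table, 4 against 4 columns without the block, it was -5.05. The sign of the mean change of Mmp9 turned under median scaling (-0.023), and it turned with an array pair or line left out for 7 genes, whose values then ran from -0.073 to 0.11 for Mmp9 (below 0 without cKO1, without cKO2 and without the first cKO2 pair), from -0.41 to 0.33 for Mmp2, from -0.33 to 0.15 for Mmp11, from -0.0032 to 1.65 for Mmp13, from -0.35 to 0.18 for Mmp23, from -0.012 to 0.71 for Mmp10 and from -0.11 to 0.35 for Timp2. All but Mmp9 and Timp2 turned only without cKO1, and Timp2 only without pcKO1. For line differences, asking for detection on 8 of 8 arrays left 4 of the 10 genes called between cKO1 and cKO2 in place of 7, since Mmp3, Mmp9, Mmp13 and Mmp23 then left the test. Between cKO2 and pcKO1, 3713 genes passed without cKO1, and 1606 or 1651 without a cKO2 pair. Of the differences of the 10 genes between lines, 362 values under the alternatives kept their side of the threshold, 15 crossed it upward and 1 downward, and 0 changed sign. Median scaling moved the median change of all genes in cKO1 from -0.03 to -0.16, and Timp1 in cKO1 to 0.06. The cause of these shifts was not tested. Signals under the dim limit limit what can be said of Mmp3, Mmp10, Mmp13 and Mmp23 in cKO2, of Mmp10 in cKO1 with GFP, and of Mmp9.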
